A study of Saccharomyces cerevisiae with 96 samples.

Results

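NAD captureSeq of unfragmented RNA was analysed in the yeast strain dxo1Δ npy1Δ, which lacks both DXO1 and NPY1. The members were chosen by their labels: 3 libraries with the tagging enzyme (+ADPRC) and 3 mock controls that never received it (−ADPRC), 6 of the 96 samples of the series. The genotype is given as BY4742 dxo1::natNT2 npy1::kanMX4, a haploid of α mating type obtained by mating, sporulation and isolation of random spores, and RAI1 is intact. All 6 libraries came from cells in logarithmic growth in rich medium (YPD) at 30 °C, and the replicates are biological. Control and treated libraries therefore share both deletions, the markers that replaced the genes and the growth conditions, and differ by the enzyme alone. For comparison, 6 libraries each of dxo1Δ and npy1Δ, the single mutants in the same background and made from the same kind of RNA, were used.

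Most eukaryotic mRNAs begin with a 7-methylguanosine cap, but RNA polymerase can also start a transcript with the coenzyme nicotinamide adenine dinucleotide (NAD), which leaves an NAD cap. Dxo1 and Rai1 belong to the DXO family of enzymes that remove incomplete or non-canonical caps, and Npy1 is a Nudix pyrophosphohydrolase that cleaves the pyrophosphate of NAD. In NAD captureSeq, ADP-ribosyl cyclase (ADPRC) exchanges the nicotinamide of an NAD cap for an alkyne, biotin is attached by click chemistry and the RNA is isolated on streptavidin, so RNA found without the enzyme is background.

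The libraries held 29300164, 4089133 and 25893795 counted reads in −ADPRC replicates 1, 2 and 3, and 6930128, 19424126 and 4200423 in +ADPRC replicates 1, 2 and 3. Levels are given as RPM, the reads of an RNA scaled to a library total of 1000000 counted reads, unless another scale is named, and mRNA values refer to reads in a window at the start codon (the 5′ region). Reads fell on 2419, 880 and 2180 of the 7647 listed RNAs in the −ADPRC libraries and on 5606, 6239 and 5208 in the +ADPRC libraries. The mRNA part of a control library was thin, at 37411, 4177 and 30351 reads, against 260942, 872995 and 174763 in the treated libraries. Replicates of a group were strongly alike but differed beyond sampling noise, so none was counted as a repeat of another. A counting floor of 3 reads over the 3 controls corresponds to 0.0506 RPM. Reads carried no molecular identifiers, so floors and intervals cover counting error only.

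The labels were checked against the deleted genes first. No read of DXO1 was counted in any of the 6 libraries, whereas npy1Δ, which carries the gene, had 7.33, 3.02 and 3.21 RPM of it after treatment. NPY1 was at 0 in the 3 controls and at 0.289, 0.154 and 0.238 RPM in the treated libraries, which are 2, 3 and 1 reads. In dxo1Δ, which carries NPY1, the treated libraries held 20.3, 23.6 and 12.1 RPM. RAI1, the intact relative of DXO1, was at 1.44, 1.90 and 2.62 RPM in the treated libraries and at 0 in the controls. The α-factor gene MF(ALPHA)1 stood at 60.7, 66.8 and 61.9 RPM after treatment, and of the 6 a-specific genes only MFA2 had a read, a single one. The DXO1 deletion and the mating type thus matched the labels, and NPY1 was far below its level in dxo1Δ. Where the few NPY1 reads came from was not tested.

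mRNA 5′ regions took a far larger share of the reads with the enzyme than without. They held 0.128%, 0.102% and 0.117% of the reads in the −ADPRC libraries and 3.77%, 4.49% and 4.16% in the +ADPRC libraries. The groups did not overlap, and the means of 0.116% ± 0.0128 and 4.14% ± 0.365 (SD, n = 3) differ by a factor of 35.8 (exact two-sided permutation test, p = 0.1, the smallest that 3 against 3 allows). The 95% Wilson interval of a single library's mRNA share is at most 0.0382 percentage points wide, far less than this gap. Among the treated mRNA reads, the 10 mRNAs with the most reads held 22.1% and the top 100 held 54.0%.

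One entry dominated the control mRNA reads. YLR162W, an open reading frame chosen here after its values were seen, held 80.0%, 79.3% and 79.9% of all mRNA reads in the −ADPRC libraries and 2.15%, 2.08% and 1.99% in the +ADPRC libraries. Whether these reads come from this open reading frame or from sequence it shares with other places was not tested, and the control mRNA share and the factor of 35.8 depend on it. The level of YLR162W hardly moved, from 1021, 810 and 937 RPM in the controls to 810, 934 and 827 RPM after treatment, and the groups overlap. Its log2 fold change with total counts as library size was -0.11 ± 0.11 (SE, edgeR quasi-likelihood test, adjusted p = 0.33). With YLR162W left out, a setting added after the data were seen, the mRNA share was 0.0234% ± 0.00221 without and 4.05% ± 0.359 with the enzyme, a factor of 173 (n = 3, exact permutation p = 0.1). The difference in percentage points was nearly the same, 4.03 against 4.02, while the factor moved from 35.8 to 173.

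**Figure D1:**
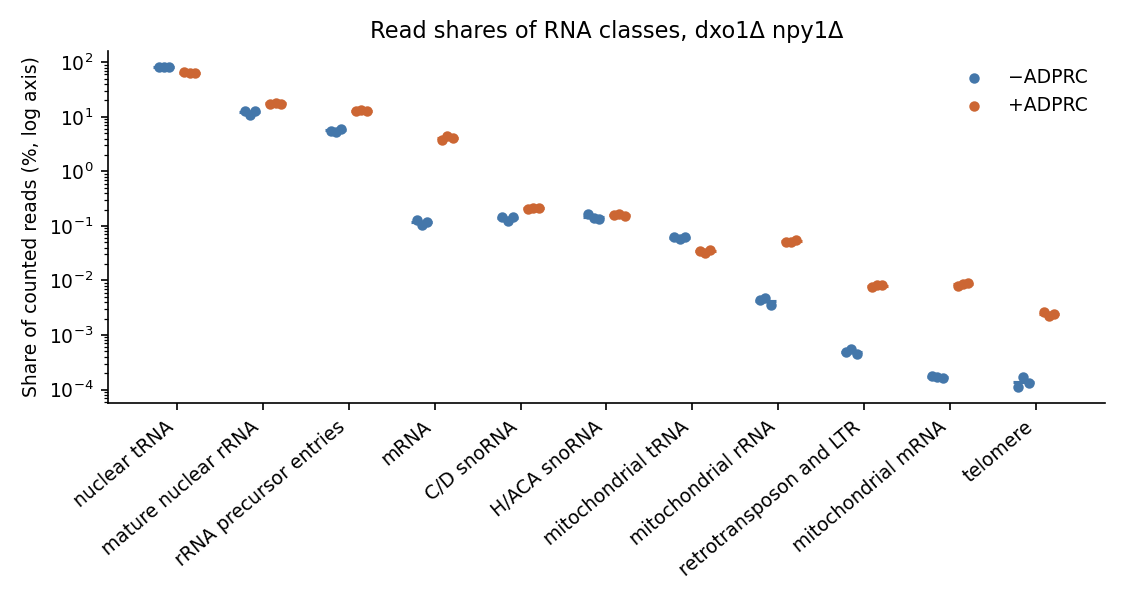
Share of counted reads in percent (log axis) of 11 RNA classes in each −ADPRC (blue) and +ADPRC (orange) library of dxo1Δ npy1Δ, where points are single libraries and bars the means of 3. The mRNA points sit near 0.1% without and near 4% with the enzyme, while the H/ACA snoRNA points of the groups overlap.

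The other large classes changed by smaller factors than mRNA, and tRNA fell. In percentage points, tRNA (-17.1) and all rRNA entries together (12.9) changed by more than mRNA (4.02). Transfer RNAs, the adaptors of translation, made up 81.7% ± 1.23 of the control reads and 64.6% ± 1.13 of the treated reads. Entries for mature nuclear rRNA rose from 12.2% ± 0.991 to 17.7% ± 0.472, and the entries for rRNA precursors, which overlap them, from 5.63% ± 0.273 to 13.0% ± 0.343. Box C/D snoRNAs, which guide 2′-O-methylation of rRNA, rose from 0.140% ± 0.0125 to 0.210% ± 0.00647, whereas box H/ACA snoRNAs, which guide pseudouridylation, were at 0.145% ± 0.0170 and 0.157% ± 0.00718 with overlapping groups (exact permutation p = 0.4). In each class named so far except H/ACA snoRNAs the groups of 3 were apart (exact permutation p = 0.1). Small classes with larger factors were mitochondrial mRNA, 0.000169% to 0.00862% (50.9-fold), mitochondrial rRNA, 0.00424% to 0.0521% (12.3-fold), retrotransposons and long terminal repeats, 0.000495% to 0.00801% (16.2-fold), and telomeric entries (17.7-fold). The factor of mitochondrial mRNA rests largely on COX2. This mRNA went from a mean of 0.263 to 78.3 RPM, and the 28 entries of the class together from 1.69 to 86.2 RPM. Mitochondrial tRNAs went the other way, from 0.0602% to 0.0341%. These 5 comparisons also had no overlap (exact permutation p = 0.1 each).

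How the libraries are scaled to one another decides how these shares turn into fold changes per RNA. TMM, the trimmed-mean scaling of edgeR that the planned test uses, gave the −ADPRC replicates factors of 0.118, 2.54 and 0.133, which is 21.6-fold between the highest and the lowest, and the +ADPRC replicates factors between 2.70 and 3.14. The class composition of the 3 controls gives no such difference: their tRNA shares were 81.0%, 83.1% and 81.0%, and their mRNA shares are those given above. The relative log expression (RLE) factors were 0.942, 0.896 and 0.892 in the controls and between 1.08 and 1.12 in the treated libraries. Library sizes taken from rRNA and tRNA reads gave factors between 1.06 and 1.07 in the controls, a ratio of 1.01. −ADPRC replicate 2, the control with the high TMM factor, is also the one with the fewest reads and the fewest RNAs detected. TMM measures each library against a reference library, here +ADPRC replicate 1. When a control replaced it as reference, an alternative added after the data were seen, the spread among the controls shrank to 1.09-, 1.05- and 1.04-fold for −ADPRC replicates 1, 2 and 3 as reference, and with +ADPRC replicates 2 and 3 it was 20.8 and 20.1. The TMM variant that pairs singletons (TMMwsp) gave 22.0. In dxo1Δ the TMM factors of the controls spread 2.14-fold and in npy1Δ 1.17-fold.

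**Figure D2:**
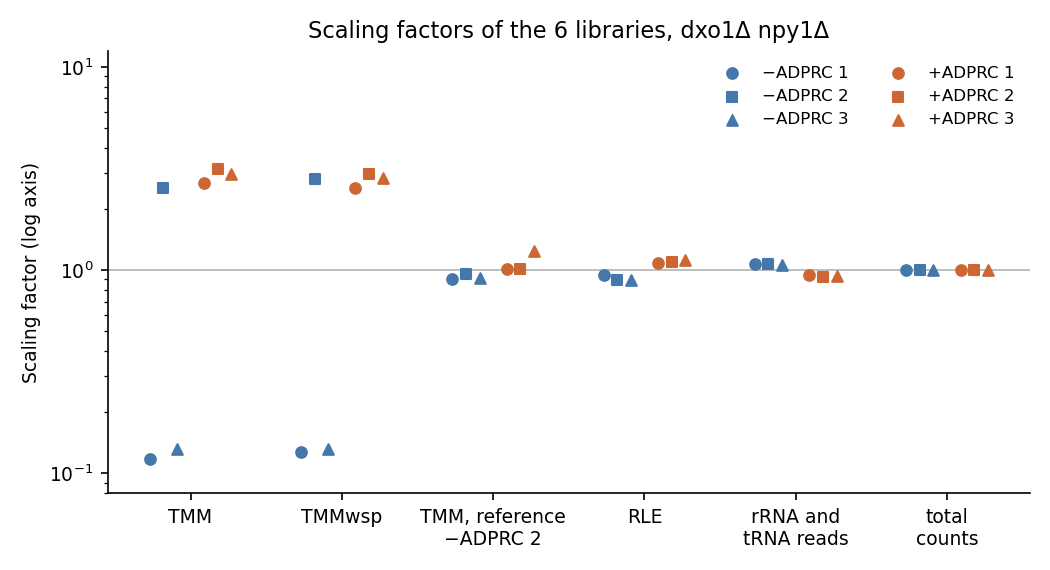
Scaling factor (log axis) of each of the 6 dxo1Δ npy1Δ libraries under 6 methods, with blue for −ADPRC, orange for +ADPRC and circle, square and triangle for replicates 1, 2 and 3. Under TMM the −ADPRC points lie at 0.118, 2.54 and 0.133, under RLE between 0.892 and 0.942.

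Fold changes per RNA were fitted to the raw counts by the quasi-likelihood test of edgeR. RNAs with a scaled mean over 1 across the 6 libraries were tested. Enriched means a rise, and depleted a fall, by more than the square root of 2 at a Benjamini-Hochberg adjusted p under 0.05. With TMM, 2946 of 4619 tested RNAs were enriched (63.8%) and 436 depleted (9.44%). With total counts as library size, 4791 of 5207 were enriched (92.0%) and 175 depleted (3.36%). The median log2 fold change over all tested RNAs was 3.96 with TMM and 6.21 with total counts, and over mRNAs 4.67 and 6.44. With RNAs without a control read set to their lower bounds, the medians over all RNAs were 1.79 and 4.73. All 2946 RNAs enriched with TMM were also enriched with total counts, and all 175 depleted with total counts were depleted with TMM. For 44 RNAs the call turned from depleted with TMM to enriched with total counts. The biological coefficient of variation was 0.567 with TMM and 0.116 with total counts. Leaving out −ADPRC replicate 2 changed the TMM counts to 1874 enriched and 559 depleted, leaving out +ADPRC replicate 2 to 1789 and 500, and leaving out −ADPRC replicate 3 to 2664 and 287.

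mRNAs were by far the largest class tested and, by number rather than by share, had the most calls under both scalings. Of 4133 tested mRNAs, 2937 were enriched and 67 depleted with TMM, and 4632 of 4702 were enriched and 3 depleted with total counts. No tRNA, snoRNA or rRNA entry was enriched with TMM, while 291 of 295 tRNAs, 55 of 76 snoRNAs and 15 of 27 rRNA entries were depleted. With total counts, 9 tRNAs, 40 snoRNAs and 15 rRNA entries were enriched, and 157, 8 and 5 were depleted. The enrichment of mRNAs therefore had the same direction under both scalings, and the calls for snoRNAs and rRNAs did not. In 4372 of the 6598 listed mRNAs every treated library was above every control by RPM, and in 3 every treated library was below. Over all 7647 listed RNAs these counts were 4533 and 217. An mRNA without control reads is counted as above as soon as each treated library holds a read.

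The controls limit how large a fold change can be measured. No read was counted in the 3 controls for 3821 of the 6598 mRNAs, and 628 had more than 3. Within the latter, 374 were enriched and 64 depleted with TMM (median log2 fold change 2.20), and 576 of 612 were enriched and 3 depleted with total counts (median 5.72). Of the RNAs called enriched, 1518 with TMM and 2292 with total counts had no control read. The mRNAs depleted with total counts, named after their values were seen, were PMU1, PAU17 and YER097W. PMU1 was at 9.45, 12.0 and 10.2 RPM in the controls and 6.06, 6.95 and 8.33 RPM after treatment. PAU17 (2.22, 2.20 and 2.51 against 2.31, 1.08 and 1.43 RPM) and YER097W (0.887, 0 and 1.00 against 0.289, 0.463 and 0.238 RPM) overlapped between the groups. Neither was called by DESeq2 (Wald test, adjusted p = 0.0658 and 0.199).

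**Figure D3:**
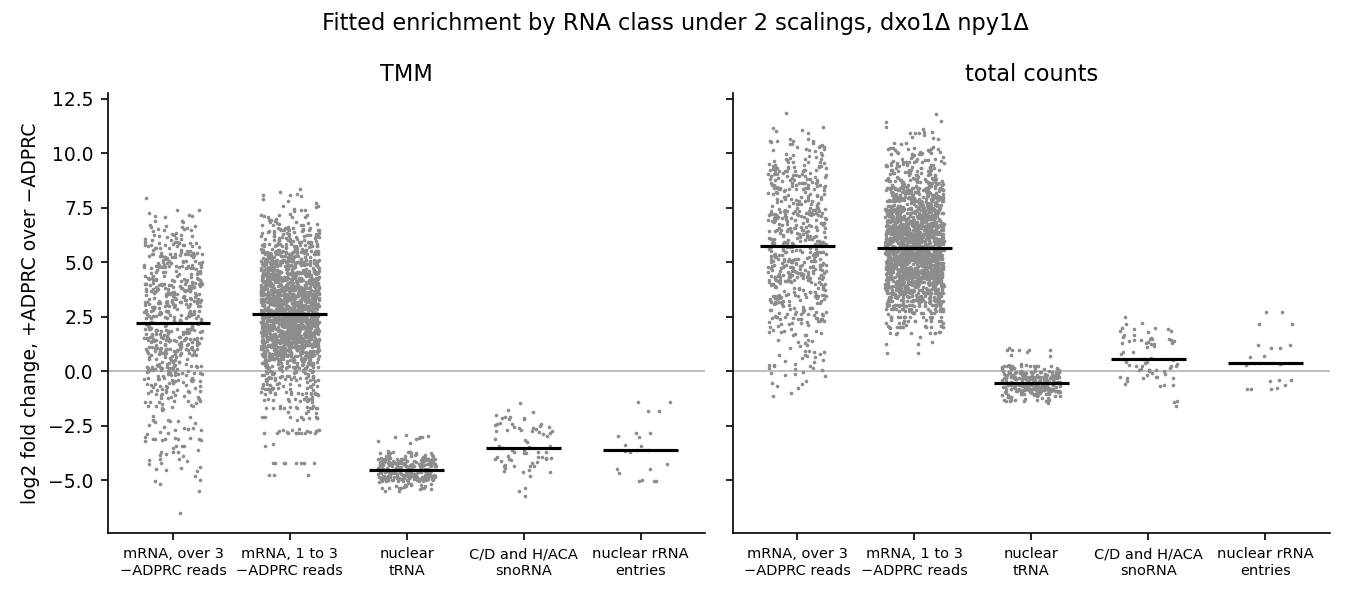
Fitted log2 fold change (+ADPRC over −ADPRC) of each tested RNA with control reads, by class, with TMM (left) and total counts (right), where points are RNAs and bars medians. mRNAs with more than 3 control reads have a median of 2.20 with TMM and 5.72 with total counts, and nuclear tRNAs lie below 0 for all points with TMM only.

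The 10 enriched mRNAs with the most treated reads encode abundant proteins. CCW12, a mannoprotein of the cell wall, was at 1.4, 1.22 and 1.08 RPM in the controls and at 1818, 1809 and 1734 RPM after treatment. The treated libraries were thus alike within 46.6 RPM (SD) and the groups far apart. Its ratio of mean RPM was 1448, and its log2 fold change was 6.50 ± 1.68 (SE) with TMM (edgeR, adjusted p = 0.000414) and 10.5 ± 0.18 with total counts.

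Enzymes of glycolysis and fermentation came next. TDH3, glyceraldehyde-3-phosphate dehydrogenase, was at 7.47, 5.38 and 6.99 RPM without and 1589, 1844 and 1529 RPM with the enzyme. It had the highest control level of these mRNAs, so its ratio of 250 was the smallest among the 10, and its log2 fold change was 3.84 ± 1.48 with TMM (edgeR, adjusted p = 0.0159) and 7.89 ± 0.16 with total counts. ENO2, enolase, rose from 0.785, 1.22 and 0.695 RPM to 1084, 1277 and 1197 RPM, a ratio of 1316. PDC1, pyruvate decarboxylase, rose from 1.30, 0.734 and 0.657 RPM to 964, 1191 and 1275 RPM. ADH1, alcohol dehydrogenase of fermentation, rose from 0.512, 0.489 and 0.657 RPM to 624, 788 and 752 RPM. In all 4 the groups were far apart. TDH3 shares sequence with TDH2 and TDH1 and ENO2 with ENO1, and reads that fit several places were given to 1 of them at random, so the split between such copies is uncertain.

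Genes of translation were also among these 10. RPS15, a single-copy protein of the small ribosomal subunit, was at 456, 565 and 513 RPM in the treated libraries, against 0.410, 0 and 0.309 RPM in the controls. RPS1B and RPS10A, ribosomal proteins with a second copy each, reached means of 370 and 341 RPM. TEF2, 1 of the pair of genes for elongation factor eEF1A, had 384, 417 and 372 RPM after treatment and 0.444, 0.245 and 0.309 RPM without the enzyme. Its copy TEF1 had 244, 267 and 268 RPM against 0.956, 0.978 and 0.734 RPM. Reads of this pair cannot be told apart where their sequences are the same.

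**Figure D4:**
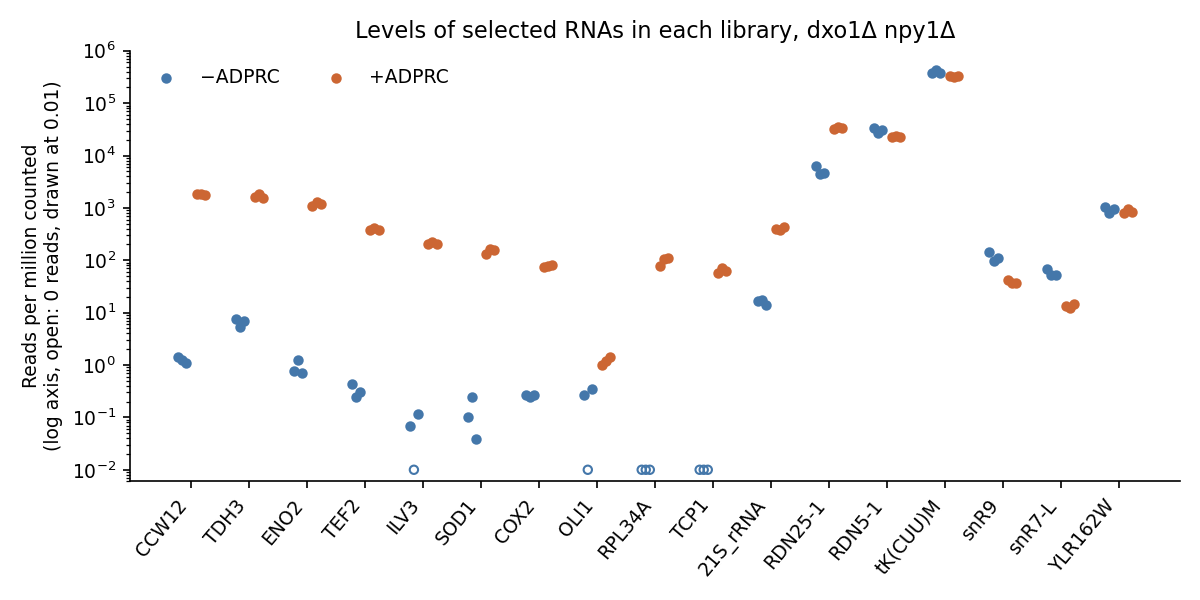
RPM, reads scaled to 1000000 counted reads (log axis, open symbols mark 0 reads and are drawn at 0.01) of 17 RNAs in the 3 −ADPRC (blue) and 3 +ADPRC (orange) libraries of dxo1Δ npy1Δ. CCW12 lies between 1734 and 1818 RPM with the enzyme and between 1.08 and 1.4 RPM without, whereas YLR162W overlaps between the groups and tK(CUU)M, RDN5-1, snR9 and snR7-L are lower with the enzyme.

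Among RNAs with more than 3 control reads, ILV3, dihydroxyacid dehydratase of branched-chain amino acid synthesis, was one of the 10 with the largest fitted fold change, at 202, 224 and 203 RPM against 0.0683, 0 and 0.116 RPM. Its ratio of mean RPM was 3415 and its log2 fold change 7.41 ± 1.71 with TMM (edgeR, adjusted p = 7.68e-05) and 11.1 ± 0.27 with total counts. TIF2, the initiation factor eIF4A with a copy in TIF1, rose from 0.0341, 0 and 0.193 RPM to 237, 279 and 250 RPM. SOD1, the copper-zinc superoxide dismutase, rose from 0.102, 0.245 and 0.0386 RPM to 129, 161 and 157 RPM, and YEF3, the fungal elongation factor 3, from 0.102, 0 and 0.0386 RPM to 105, 117 and 114 RPM. The top 10 also held 5 ribosomal protein genes, RPL43A, RPS16B, RPS1B, RPL33A and RPL21A, with ratios between 545 and 3390. Each of these mRNAs was also enriched with total counts. Their control levels rest on 4 to 10 reads in all, so these ratios carry a wide counting error and their order is not firm.

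Among enriched RNAs without any control read, only a lower bound of the ratio can be given. RPL34A, a protein of the large ribosomal subunit, had 78.5, 108 and 113 RPM after treatment and no read in any control, at least 1969-fold higher against the floor of 3 reads over the control group. TCP1, a subunit of the cytosolic chaperonin, had 58.3, 72.4 and 63.1 RPM, at least 1277-fold higher. CMD1, calmodulin, TOM20, a receptor for mitochondrial import, and CCW14, a cell wall glycoprotein, were at least 886-, 744- and 679-fold higher. The treated libraries varied little in these 5 mRNAs, and their bounds are set by the depth of the controls.

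All gene groups consist of mRNAs, so they were read against the 71.1% of tested mRNAs enriched with TMM and the 98.5% with total counts, rather than the 63.8% and 92.0% of all RNAs, and against the mRNA medians of 4.67 and 6.44. With total counts nearly every mRNA was enriched, so a full count of a list says little about its members. Of 138 cytosolic ribosomal protein mRNAs, 126 were enriched with TMM and all 138 with total counts, none was depleted, and their summed level went from 43.1 to 11971 RPM. Their median log2 fold change was 5.29 with TMM and 8.96 with total counts. Only 4 of them lacked a control read, so with lower bounds the medians stayed at 5.25 and 8.96, against 2.07 and 4.98 for all mRNAs. Many of these genes come in near-identical pairs whose reads may be shared. Translation factors behaved alike, with 27 of 30 enriched with TMM and 29 of 29 with total counts (medians 4.91 and 8.74).

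Of the glycolysis and fermentation list, 20 of 22 tested mRNAs were enriched with TMM and 24 of 24 with total counts, with medians of 4.62 and 7.98. The list summed to 12.7 RPM in the controls and 5900 RPM after treatment. Cell wall proteins were enriched in 16 of 18 with TMM and 18 of 18 with total counts, and their medians of 6.28 and 9.57 were the highest of the lists. Beside CCW12 this group held CWP2 (243, 259 and 249 RPM against 0.375, 0.245 and 0.270 RPM), SED1 and CIS3 (117, 121 and 112 RPM, with 3 control reads in all). Chaperones were enriched in 17 of 20 and 22 of 23, led by SSA2, an Hsp70 with close copies, at 182, 205 and 217 RPM against 0.171, 0 and 0.193 RPM. All 11 histone mRNAs, whose copies also share reads, were enriched under both scalings (medians 3.54 and 7.19). The medians of these 4 lists lay above the mRNA median with total counts. With TMM, glycolysis and histones lay below the fitted mRNA median of 4.67, but with lower bounds for mRNAs without control reads they were at 4.14 and 3.34, above the 2.07 of all mRNAs.

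Proteins that build ribosomes were enriched in 29 of 32 with TMM and 32 of 32 with total counts (medians 6.06 and 8.53). NOP56, a core protein of box C/D particles, was at 66.1, 78.9 and 72.4 RPM against 3 control reads, and CBF5, the pseudouridine synthase of H/ACA particles, at 20.8, 33.3 and 24.3 RPM against none. The enrichment of these mRNAs stood beside a box C/D class that rose 1.5-fold in its share of reads. The H/ACA class was at 1.08-fold with overlapping groups, and a link between these mRNAs and the snoRNAs was not tested. Mitochondrial ribosomal proteins were low, 142 RPM in sum, and were enriched in 53 of 65 and 67 of 67 (medians 5.53 and 6.85). With lower bounds in place of fitted values for the 44 without control reads, these medians were 2.01 and 5.19. The corresponding medians of the ribosome-building list were 3.66 and 7.02.

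The proteins of oxidative phosphorylation are encoded partly in the nucleus and partly in mitochondrial DNA. Of the nuclear-encoded subunits, 31 of 37 were enriched with TMM and 37 of 37 with total counts, with medians of 5.15 and 7.76, or 2.63 and 5.68 with lower bounds. COX9, a small subunit of cytochrome c oxidase, had 10.7, 14.8 and 17.4 RPM after treatment and no control read. ATP16 of the ATP synthase was at 9.38, 11.3 and 11.2 RPM against 0.137, 0 and 0.0772 RPM. Of the 8 proteins encoded by mitochondrial DNA, 3 were tested with TMM, of which COX2 was enriched and OLI1 depleted, and 4 of 4 were enriched with total counts.

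COX2, subunit 2 of cytochrome c oxidase, was at 0.273, 0.245 and 0.270 RPM in the controls and at 74.3, 79.1 and 81.4 RPM after treatment. It held most of the 80.4 RPM of this list, and its log2 fold change was 4.26 ± 1.33 with TMM (edgeR, adjusted p = 0.00323) and 8.14 ± 0.26 with total counts. OLI1, a subunit of the ATP synthase, had 0.273, 0 and 0.348 RPM in the controls and 1.01, 1.18 and 1.43 RPM after treatment, a ratio of 5.84. Every treated library was above every control, yet TMM gave a log2 fold change of -1.38 ± 0.57 (edgeR, adjusted p = 0.0233) and total counts 2.02 ± 0.47. COX3, subunit 3 of cytochrome c oxidase, was lower and not called with TMM, with a ratio of 5.87, and overlapped between the groups (0.102, 0 and 0.154 RPM against 0.144, 0.412 and 0.952 RPM). The mitochondrial 21S_rRNA rose from 16.8, 17.1 and 14.1 RPM to 389, 386 and 430 RPM, a ratio of 25.1, and the 15S_rRNA from 26.4, 31.5 and 21.4 RPM to 112, 115 and 132 RPM, a ratio of 4.52. Neither was called with TMM (log2 fold changes 0.69 and -1.70) and both were enriched with total counts (4.67 ± 0.15 and 2.21 ± 0.15).

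Genes of NAD metabolism were scarce in the libraries. Of the 21 genes for NAD synthesis and use, 16 of 17 were enriched with TMM and 21 of 21 with total counts, but 17 had no control read and the list summed to 36.9 RPM after treatment. TNA1, the importer of nicotinic acid, was highest, with 8.66, 12.5 and 6.43 RPM against 0.171, 0.245 and 0.116 RPM. Of the genes for capping, decapping and decay from the 5′ end, 15 of 22 were enriched with TMM and 24 of 24 with total counts. The 24 include NPY1, which this strain lacks and which was not tested with TMM. Its call with total counts (log2 fold change 4.62, edgeR adjusted p = 0.00204) rests on 2, 3 and 1 treated reads. The fitted medians of this list, 3.01 and 5.94, were below those of all mRNAs. With lower bounds they were 1.94 and 5.03 against 2.07 and 4.98, and 15 of 22 is close to the mRNA background with TMM. RAT1, the nuclear 5′ exonuclease that binds Rai1, was at 11.3, 14.4 and 10.2 RPM against 0.0683, 0 and 0.0772 RPM. EDC3, an activator of decapping, was at 2.89, 3.14 and 4.52 RPM against 0.341, 0 and 0.270 RPM, without overlap. EDC3 was not called with TMM (log2 fold change 0.08 ± 0.51, edgeR adjusted p = 0.879) and was enriched with total counts (3.52 ± 0.39).

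The study names 10 genes for this assay, which it took mainly from other strains and from an earlier report. The choice was made with results of the series in view, so their count is no independent evidence. All 10 were enriched under both scalings. Beside TDH3, SED1 and COX2 they include POR1, the porin of the outer mitochondrial membrane, at 70.3, 89.0 and 77.4 RPM against 0.0683, 0.245 and 0.0772 RPM. ERG2, a sterol isomerase of ergosterol synthesis, was at 42.1, 54.6 and 39.3 RPM, with 3 control reads in all. LSM6, a subunit of the Lsm rings, was the weakest, at 7.65, 6.90 and 7.62 RPM against 0.341, 0 and 0.232 RPM. Its log2 fold change was 1.19 ± 0.56 with TMM (edgeR, adjusted p = 0.046) and 4.73 ± 0.35 with total counts. UBC7, YJR112W-A, LSM7 and RSM10 were all below 10 RPM in each treated library.

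The 5 most depleted RNAs were small structural RNAs. snR7-L, the long form of the U5 spliceosomal RNA, fell from 67.2, 51.4 and 52.2 RPM to 13.3, 12.0 and 14.5 RPM. It had the most negative log2 fold change, -6.17 ± 1.63 with TMM (edgeR, adjusted p = 0.000543) and -2.14 ± 0.16 with total counts (adjusted p = 1.32e-38). snR9, an H/ACA snoRNA, fell from 145, 97.3 and 110 RPM to 42.3, 36.7 and 36.7 RPM, and snR74, a box C/D snoRNA, from 59.9, 48.7 and 53.1 RPM to 19.8, 20.2 and 20.2 RPM. tP(AGG)C and the mitochondrial tA(UGC)Q completed the list of 5, with ratios of mean RPM of 0.365 and 0.375. These 5 were depleted under both scalings and did not overlap between the groups.

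The depleted RNAs with the most reads changed little by RPM. tK(CUU)M, a lysine tRNA, alone took 376982, 421691 and 383811 RPM of the controls and 333432, 309076 and 329078 RPM of the treated libraries. Its ratio was 0.822, its log2 fold change -4.23 ± 1.5 with TMM and -0.28 ± 0.07 with total counts, and the latter did not reach the fold limit. The same held for tN(GUU)K, tT(AGU)N2, RDN5-1 and RDN5-6, the last a pair of 5S rRNA copies that share reads, with ratios between 0.734 and 0.795. These 5 were called depleted with TMM and by DESeq2, whose log2 fold change of tK(CUU)M was -0.56 ± 0.09, and were not called with total counts.

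Other structural RNAs rose by RPM. RDN25-1, one of 2 entries of 25S rRNA, went from 6327, 4429 and 4660 RPM to 32547, 34354 and 34029 RPM, a ratio of 6.55. RDN18-1 of the 18S rRNA went from 17032, 18682 and 20874 RPM to 25336, 25902 and 23010 RPM, and RDN58-1 of the 5.8S rRNA from 2531, 1930 and 2049 RPM to 4610, 4522 and 4689 RPM. With total counts the log2 fold changes were 2.71 ± 0.09, 0.39 ± 0.09 and 1.09 ± 0.10, and with TMM -1.39 ± 1.37, -3.61 ± 1.49 and -2.99 ± 1.45. The order 25S, 5.8S, 18S, 5S was the same on both scales. A change of scaling shifts these RNAs by similar amounts, so the shared order is no separate evidence.

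Enrichment was set against transcript level in the 3 transcriptome libraries of the same strain, which held between 1193668 and 1557850 reads on mRNA 5′ regions. Across 4130 tested mRNAs the TMM log2 fold change had a Spearman rho of -0.0195 and a Pearson r of 0.00328 with the level, and with total counts rho was 0.177 and r 0.169 (4701 mRNAs). Restricted to mRNAs with more than 3 control reads, rho was 0.324 with TMM (627 mRNAs) and 0.315 with total counts (611 mRNAs). With the level counted over coding sequences, rho was 0.187 and 0.401. The captured level itself, RPM in the treated libraries, had a rho of 0.454 with the transcript level over 5756 mRNAs. These correlations run across mRNAs, which are not independent replicates and share the libraries, so they are descriptions without a test.

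The single mutant dxo1Δ, sequenced in the same run by the labels, shows whether loss of NPY1 beside DXO1 goes with another capture. The mRNA shares were nearly the same, 0.128% ± 0.0130 and 4.06% ± 0.729 in dxo1Δ and 0.116% ± 0.0128 and 4.14% ± 0.365 in dxo1Δ npy1Δ (n = 3 each). With YLR162W left out they were 0.0216% ± 0.00173 and 3.98% ± 0.716 in dxo1Δ. tRNA went from 81.3% ± 1.63 to 64.9% ± 4.86 in dxo1Δ, again close to the double mutant. Single mRNAs were alike too: treated means of CCW12 and TDH3 were 1787 and 1654 RPM in dxo1Δ npy1Δ and 1772 and 1836 RPM in dxo1Δ.

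The difference in enrichment was tested as an interaction of strain and enzyme over the 12 libraries. With TMM, 113 of 4380 RNAs were less enriched in dxo1Δ npy1Δ (2.58%) and 0 more (0%), and the median interaction over all RNAs was -2.19. With total counts the median was -0.11, and 0 of 4931 RNAs differed in either direction (0%), with 58 higher and 22 lower at an unadjusted p below 0.05, and 0 by DESeq2. Beside the 0 higher with TMM, 0 were higher at an unadjusted p below 0.05. Without −ADPRC replicate 2 of the double mutant, TMM called 1068 RNAs, without −ADPRC replicate 1 or 3 it called 0, and without +ADPRC replicates 1, 2 and 3 it called 38, 36 and 38. The 5 mRNAs with the largest difference among those called and above a mean of 10 were EFT2, RPL1B, YDR154C, TIP1 and RPP1B, all without control reads in dxo1Δ. EFT2, elongation factor eEF2 with the copy EFT1, was at 116, 132 and 129 RPM in treated dxo1Δ npy1Δ and 101, 121 and 103 RPM in treated dxo1Δ. Its controls were at 0.307, 0 and 0.309 RPM and at 0, 0 and 0 RPM. Treated levels of RPL1B (191, 224 and 245 RPM against 184, 223 and 203 RPM) and YDR154C (4.62, 6.23 and 4.29 RPM against 5.03, 6.91 and 5.50 RPM) also overlapped between the strains. Control reads of EFT2 were 9, 0 and 8 in dxo1Δ npy1Δ, and there were none in dxo1Δ. Why these mRNAs were called with TMM and not with total counts was not tested.

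**Figure D5:**
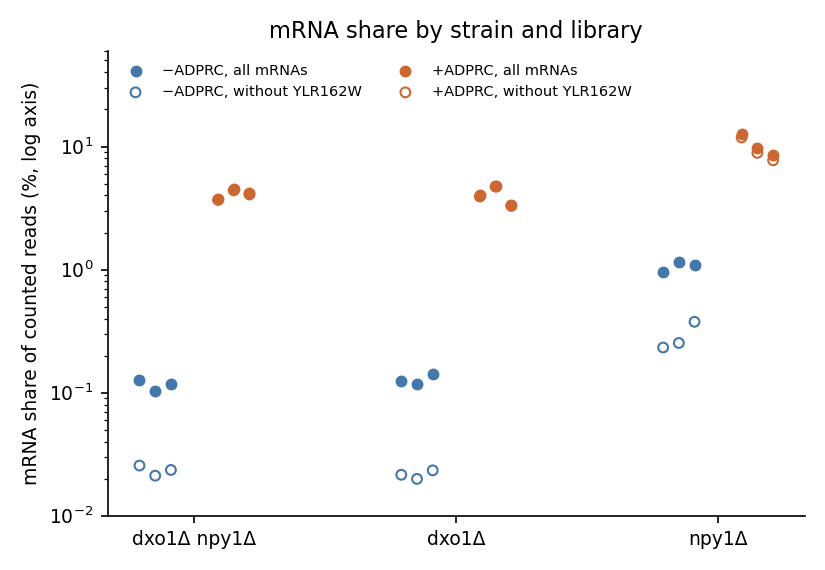
mRNA share of counted reads in percent (log axis) in each −ADPRC (blue) and +ADPRC (orange) library of dxo1Δ npy1Δ, dxo1Δ and npy1Δ, with all mRNAs (filled) and without YLR162W (open). dxo1Δ npy1Δ and dxo1Δ lie at the same levels, near 4% with the enzyme, and npy1Δ lies higher in both groups.

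The other single mutant, npy1Δ, was sequenced in another run, so strain and run cannot be told apart. Its mRNA share was 1.07% ± 0.0960 without and 10.3% ± 2.05 with the enzyme, a factor of 9.62 against 35.8 in dxo1Δ npy1Δ. Without YLR162W the factors were 33.0 and 173. tRNA took 45.3% ± 1.39 and 38.9% ± 2.31 of its reads, well below the shares in dxo1Δ npy1Δ. With TMM, 2 of 5495 RNAs were more enriched in dxo1Δ npy1Δ (0.0364%) and 6 less (0.109%). With total counts, 790 of 5930 were more enriched (13.3%) and 90 less (1.52%). Leaving out −ADPRC replicate 2 raised the TMM count to 528, and leaving out any other single library of the double mutant left 0 or 1.

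CMD1 was among those more enriched with TMM, at 39.7, 48.0 and 46.9 RPM in treated dxo1Δ npy1Δ and 28.6, 23.8 and 22.5 RPM in treated npy1Δ. Its controls held no read in dxo1Δ npy1Δ and 0.787, 4.07 and 2.51 RPM in npy1Δ. RRB1, ERF2, IRC24, AIM29 and NSG2 were less enriched. NSG2, an endoplasmic reticulum protein of sterol regulation, was at 1.81, 2.20 and 1.27 RPM without and 1.73, 2.11 and 2.14 RPM with the enzyme in dxo1Δ npy1Δ, so its groups overlapped. In npy1Δ it went from 0, 0.581 and 3.85 RPM to 29.9, 26.8 and 16.5 RPM. ERF2, a subunit of the Ras palmitoyltransferase, likewise overlapped in the double mutant (1.43, 1.22 and 0.116 RPM against 1.59, 1.24 and 1.19 RPM) and reached 11.6, 9.73 and 7.22 RPM in treated npy1Δ. In treated dxo1Δ, NSG2 had a mean of 1.31 RPM and ERF2 of 0.888 RPM, which are levels close to those of the double mutant.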

How the data were processed

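The authors sequenced on a NextSeq 500, set reads of 12 to 17 nt apart, separated rRNA and tRNA reads and aligned what remained by bowtie against the Toronto genome of BY4742, giving reads with several places to 1 at random. SAMtools 0.1.13 and HTSeq are named in the submitters' processing notes. The deposited values are whole-number counts per RNA and strand, not normalized. Inserts were selected by size, so short RNAs prevail. The authors' tables of comparisons (base mean, log2 fold change, its error, p-value and adjusted p from DESeq2 1.4.5) were not used, and 42 columns of other strains in the transcriptome tables were left out. Of the 6598 mRNAs, 5914 matched a RefSeq locus, used for names only. HIS3, LEU2, LYS2 and URA3 were not analysed here, and 1 RNA that the naming rule selects is not reported here.

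From the counts, RPM were computed as the reads of an RNA scaled to 1000000 counted reads of its library. The quasi-likelihood F test of edgeR 4.0.16 with TMM scaling (R 4.3.3, limma 3.58.1) was run on RNAs with a scaled mean above 1, and the Wald test of DESeq2 1.42.0 was an alternative, without covariates. Scripts were tested on counts simulated from the mean levels of the treated libraries. Controls with few mRNA reads were not simulated, so that check does not cover the uneven TMM factors. Intervals are 95% Wilson intervals, and shares were compared by exact permutation tests. Alternatives were other scalings, filters, tools, a block for replicate number, and fits without each library in turn. Library depth ranged from 4089133 to 29300164 reads.

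RNAs were named by rule: the deleted genes and strain markers, the 10 largest fold changes with more than 3 control reads, a mean above 10 and no overlap, the 5 highest bounds without control reads, the 10 with most treated reads, the 5 most depleted and the 5 depleted with the highest mean, the 4 most abundant of each list, the study's own genes, and up to 5 RNAs per direction of each interaction. Members and lists were chosen with earlier results of these data known.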

Additional observations from a re-analysis of the deposited data

Results flagged for a closer look

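With TMM some RNAs were called in a direct test of strain differences, the interaction of strain and enzyme (edgeR quasi-likelihood test). These calls depend on the scaling. Against dxo1Δ, 113 RNAs passed an adjusted p of 0.05 with TMM, and 0 with RLE, total counts or DESeq2. The adjusted p was 0.0339 for EFT2, 0.0460 for RPL1B, 0.00353 for YDR154C, 0.00893 for TIP1 and 0.0460 for RPP1B, each lower in dxo1Δ npy1Δ, and with total counts none of these 5 passed. Against npy1Δ, 8 RNAs passed with TMM, but strain and sequencing run cannot be told apart there. The adjusted p was 0.0307 for RRB1, 0.00538 for ERF2, 0.0247 for IRC24, 0.0305 for AIM29 and 0.0247 for NSG2, each lower in dxo1Δ npy1Δ, and 0.0271 for CMD1, which was higher.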

How the results depend on the processing

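The number of enriched RNAs (2946 with TMM) was 4717 with RLE, 4791 with total counts, 4869 with rRNA and tRNA reads as library size, 1609 with mRNA reads as library size, 1286 with filterByExpr and 4728 with −ADPRC replicate 2 as TMM reference. The number of depleted RNAs (436) was 244, 175 and 127 with RLE, total counts and rRNA and tRNA reads, 233 with DESeq2 and 218 with that TMM reference. Leaving out 1 library gave 1789 to 2776 enriched and 287 to 559 depleted RNAs with TMM, and 4499 to 4940 and 159 to 175 with total counts. Against dxo1Δ, 113 RNAs differed with TMM, 0 with RLE, total counts, rRNA and tRNA reads, mRNA reads or DESeq2, 33 with filterByExpr, 0 to 1068 without 1 library and 0 to 0 without 1 library with total counts. Against npy1Δ, 8 differed with TMM, 811 with RLE, 880 with total counts, 818 with rRNA and tRNA reads, 563 with mRNA reads, 829 with DESeq2, 60 with filterByExpr, and 0 to 528 (TMM) or 294 to 713 (total counts) without 1 library. The cause was not tested. The difference in mRNA share, 4.02 points, was 4.64 without rRNA precursors in the total and 3.85 to 4.21 without 1 library. Spearman's rho against transcript level, -0.0195 with TMM, was 0.324 with more than 3 control reads, 0.187 with coding-sequence counts and 0.177 with total counts. The TMM reference, TMMwsp and the total-count runs with a block or a left-out library were added after the data were seen.

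Log2 fold changes that turned in sign under RLE, total counts, rRNA and tRNA reads and DESeq2, in this order, were those of OLI1 (1.76, 2.02, 2.21 and 1.89), COX3 (1.54, 1.79, 1.98 and 1.82), RRB1 (2.74, 3.00, 3.19 and 2.72), ERF2 (0.39, 0.64, 0.84 and 0.34) and AIM29 (1.96, 2.22, 2.41 and 2.08), and of NSG2 under the first 3 (0.052, 0.31 and 0.50). With mRNA reads as library size LSM6 (-0.37), EDC3 (-1.60), YDR154C (-0.60) and IRC24 (-1.57) turned. Without 1 library EDC3 ranged from -1.16 to 1.08, IRC24 from -1.07 to 0.71, RRB1 from -1.42 to 0.44 and YDR154C from -0.091 to 1.77.

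With the replicate number as a block, TMM called 0 enriched and 0 depleted RNAs (1204 and 13 at an unadjusted p below 0.05) and 0 differences from either single mutant, while total counts with the block called 4675 and 170. Whether equal numbers mark paired samples could not be settled from these libraries, and the main fits treat them as unpaired. Deviations of same-numbered libraries correlated at 0.204, -0.0588 and 0.328. −ADPRC replicate 1 was closest to +ADPRC replicate 2 (0.355), whereas −ADPRC replicate 3 was closest to +ADPRC replicate 3. Depth limits the fold changes, since 3821 mRNAs had no control read.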

Other observations

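Of the 20 lysine tRNA genes, 6 were enriched with total counts and 14 were not called. The 6 all had the UUU anticodon and make up most of the 9 enriched tRNAs. With 8 lysine tRNA entries of this anticodon listed, not every one was enriched. With TMM no lysine tRNA was enriched and 16 were depleted, and the group as a whole went from 408635 to 339564 RPM in sum. tK(UUU)G2 rose from 197, 206 and 219 RPM to 379, 397 and 527 RPM, and tK(UUU)D from 289, 317 and 326 RPM to 542, 551 and 753 RPM, without overlap. These genes are copies of one tRNA and share reads, so they are not separate observations. All 16 aspartate, all 16 glutamate and all 10 phenylalanine tRNAs were depleted under both scalings. Their summed RPM fell from 13901 to 5945, from 18188 to 10134 and from 3308 to 1754. The same calls held for all 19 leucine, 7 histidine, 6 tryptophan and 8 tyrosine tRNAs tested. Of all 271 nuclear tRNAs tested, 267 were depleted with TMM and 142 with total counts. Gene copies within a family may share reads, so these counts are not counts of separate observations. The RNAs of this paragraph were chosen after their values were seen.

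Some non-coding RNAs rose by RPM and were not enriched with TMM. TLC1, the telomerase RNA, went from 0.546, 0.734 and 0.270 RPM to 8.51, 11.6 and 7.62 RPM, and snR19, the U1 spliceosomal RNA, from 14.0, 9.54 and 7.96 RPM to 50.8, 53.6 and 46.4 RPM. SCR1, the RNA of the signal recognition particle, went from 220, 163 and 161 RPM to 351, 390 and 373 RPM, and with TMM it was depleted (log2 fold change -3.05 ± 1.44, edgeR adjusted p = 0.0475). snR83, an H/ACA snoRNA, rose from 4.20, 5.38 and 4.90 RPM to 25.5, 25.8 and 27.9 RPM, the largest ratio of the snoRNAs at 5.47. The Ty1 element YLRWTy1-3 rose from 1.13, 0.489 and 0.811 RPM to 15.7, 20.7 and 18.3 RPM. All of these had treated libraries above every control, and they too were chosen after their values were seen.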
